A study of Homo sapiens with 12 samples.

Results

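The response to JQ1 given alone was taken from the 6 libraries, of 12 in the series, that were labelled with the vehicle DMSO or with JQ1 and no other drug. Each was made from polyadenylated RNA of a human triple-negative breast cancer cell line after 72 h of treatment. SUM159, MDAMB231 and HCC1806 each gave 1 DMSO and 1 JQ1 library, so that 3 JQ1 libraries were compared with 3 DMSO libraries, paired by line. The JQ1 dose was 300 nM for SUM159, 100 nM for MDAMB231 and 500 nM for HCC1806. SUM159 and MDAMB231 grew in DMEM/F12 with 5% serum, 5 µg/ml insulin and 1 µg/ml hydrocortisone, and HCC1806 grew in RPMI 1640 with 10% serum. Cell line, medium and JQ1 dose therefore cannot be told apart where HCC1806 differs from the others. The other 6 libraries received GSK2801, an inhibitor of other bromodomains, at 10 µM, alone or together with JQ1 at the same dose per line, and served only as a second measurement of the JQ1 response. Tests covered 14235 of 28512 genes, those whose value averaged 10 or more in the 6 libraries.

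JQ1 occupies the acetyl-lysine pocket of the bromodomains of the BET proteins, BRD2 and BRD3 among them, and so releases them from acetylated chromatin. BET proteins help to recruit the elongation factor P-TEFb, a pair of the kinase CDK9 with a T-type cyclin, to promoters and enhancers. HEXIM1 holds P-TEFb inactive together with the 7SK RNA, and in breast cancer cells BET inhibitors are known for raising HEXIM1 and for lowering genes that depend on large enhancers.

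The 6 libraries held an estimated 24200000 to 36300000 reads, from the value of 1 read in each, and 15766 to 16533 genes with a value above 0. The deposited signal, which has the same upper quartile in each library, is given below in the order SUM159, MDAMB231, HCC1806. Changes are mean log2(value + 1) differences over the 3 lines with the standard error (SE) of a limma fit that holds the line as a block, and the threshold is an adjusted p of 0.05. The identity markers VIM and KRT5 told HCC1806 from the other lines in both treatments, as did CDH1, EPCAM and ZEB1. Not all markers followed that split. In DMSO the mesenchymal genes CDH2 and SPARC were at 5173, 17.3 and 951, and at 9805, 3.77 and 6.41. The basal gene TP63 was at 1831, 3.77 and 4737. The mesenchymal filament gene VIM was at 91350, 93280 and 77.0 in DMSO and at 142200, 117600 and 173 with JQ1, and the basal keratin gene KRT5 was at 91.8, 2.90 and 32770, against 97.3, 0 and 11270 with JQ1. The estrogen receptor gene ESR1 reached 138 at most and the progesterone receptor gene PGR 12.1, while ERBB2 was between 1749 and 6456. Genes that also mark fibroblasts, blood and endothelium were present at levels that differed by line. A list of 11 fibroblast and adipocyte genes summed to 63000 in DMSO and 25200 with JQ1 in SUM159, to 238 and 273 in MDAMB231, and to 10600 and 4360 in HCC1806. A list of 14 blood and endothelial genes summed to 2420 and 966, to 3420 and 4700, and to 1040 and 367. Both sums were thus lower with JQ1 in SUM159 and HCC1806 and higher in MDAMB231, but sums follow the highest genes. The median log2 difference of the tested members was −2.21, −0.17 and 0.03 in the first list and −1.68, 0.45 and 0.06 in the second. By the median, the blood and endothelial list fell in SUM159 only, and the fibroblast and adipocyte list fell mostly there. In SUM159 the leukocyte gene PTPRC was at 422 in DMSO and 4.25 with JQ1, the pericyte gene PDGFRB at 1385 and 294, and the endothelial gene PECAM1 at 730 and 227. HBB, which defines red cells, was at 0 in all 6 libraries. In bulk RNA, fewer cells of a type and less RNA per cell cannot be told apart, and the part of these markers in the results below was not tested. None of the 5 blood and endothelial or 10 fibroblast and adipocyte genes tested passed the threshold (1 and 1 unadjusted).

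Against DMSO, 346 genes were higher with JQ1 (2.43% of those tested) and 408 were lower (2.87%), or 754 in all (5.30%). The median absolute change of the 754 was 1.14, and 211 of the rises and 265 of the falls were at least 2-fold on average. All 754 moved the same way in the 3 lines, as did 7195 of the 14235 genes tested. For 374 of the 754 the JQ1 libraries did not overlap the DMSO libraries, against 9.58% of all tested genes. Counting by size alone, 192 genes (1.35%) were at least 2-fold higher in each line and 289 (2.03%) at least 2-fold lower, and 129 and 152 of these also passed the test. The calls lay close to the threshold, since the smallest adjusted p was 0.0348, and 4164 genes had an unadjusted p below 0.05. With no filter on low values, with no variance trend, without the line block, with a fold threshold of 1.5 or without any 1 line, limma called 0 genes (585 to 4374 unadjusted). With quantile normalization 353 genes were higher and 232 lower, and with median-ratio rescaling 462 and 324, so that the share of rises moved from 45.9% to 60.3% and 58.8%. Of the 104 genes chosen for naming that passed, 22 no longer did with quantile normalization: MXD4, CCAT1, NRG1, HIST2H4A, ZNRD1, TWISTNB, YARS, RAD51D, IL15RA, IL1A, LIF, IFIT1, TYRO3, PLAUR, MAP1A, GRN, ATF4, NDRG1, EPAS1, PGD, DNAJC7 and TET3. With median-ratio rescaling TWISTNB, IL1A, TYRO3, PLAUR, DNAJC7 and PSMB2 no longer passed, and with a pseudocount of 10 IQUB, PTPN22, L1CAM, FGFBP1, CCAT1, IL1A, SERPINF2, MAP1A and PGD. The median over all genes was −0.08, and these scalings shifted it by 0.07 and 0.06.

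HEXIM1 was at 2928, 3018 and 2510 in DMSO and at 7082, 6483 and 6270 with JQ1. All 3 JQ1 values lay above all 3 DMSO values, and the lines were close to each other within each treatment. The rise was 2.35-fold (1.23 ± 0.12, adjusted p = 0.0348). BRD2, itself a target of the drug, was at 8577, 7509 and 7508 in DMSO and at 19240, 12680 and 16440 with JQ1. Its rise was 2.02-fold (1.02 ± 0.14, adjusted p = 0.0348), smallest in MDAMB231, again with no overlap between the groups. BRD3 was at 1794, 1253 and 1797 in DMSO and at 2086, 1471 and 2498 with JQ1, with the groups overlapping, and did not pass (0.31 ± 0.14, adjusted p = 0.194).

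HEXIM1 lies on chromosome 17, at 45148502 to 45152101 on the plus strand (GENCODE v29, hg38), and BRD2 on chromosome 6 at 32968660 to 32981505. IL7R, the interleukin-7 receptor gene and the largest fall, lies on chromosome 5 at 35852695 to 35879603. The promoters of HEXIM1 and IL7R are shown because HEXIM1 is the best known marker of BET inhibition and IL7R fell most. They are from RefSeq (GRCh38.p14), for HEXIM1 the 250 bases before the start at chr17:45148225-45148474 on the plus strand, and for IL7R the stretch chr5:35856688-35856848 on the plus strand, which ends 42 bases before the RefSeq start and leaves out bases that GENCODE, whose IL7R gene starts further upstream, places in its exons. Capitals mark, on either strand, the TATA box (TATAAA), the CCAAT box, the E-box bound by MYC and MAX (CACGTG), the AP-1 site (TGANTCA), the ETS site (CCGGAAG) and the GC box (GGGCGG), none of which overlapped in these stretches.
HEXIM1: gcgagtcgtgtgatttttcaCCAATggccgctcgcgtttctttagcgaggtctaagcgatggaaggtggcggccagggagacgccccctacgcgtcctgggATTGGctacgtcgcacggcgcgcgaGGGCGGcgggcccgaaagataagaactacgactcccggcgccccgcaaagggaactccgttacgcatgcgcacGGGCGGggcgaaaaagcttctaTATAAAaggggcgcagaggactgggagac
IL7R: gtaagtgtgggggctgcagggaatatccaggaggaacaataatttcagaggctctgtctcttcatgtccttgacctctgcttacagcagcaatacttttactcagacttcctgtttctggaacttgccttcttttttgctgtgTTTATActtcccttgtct
The HEXIM1 window held 1 TATAAA at −29, 2 CCAAT boxes and 2 GC boxes (GGGCGG), and 62.4% of its bases were G or C. The IL7R window of 250 bases held TATAAA at −60 and −29, neither CCAAT nor GGGCGG, and 43.6% G and C. Of 22114 RefSeq windows of that length, 11.8% held the TATA box, 33.4% the CCAAT box, 6.3% the E-box, 6.9% the AP-1 site, 8.9% the ETS site and 40.9% the GC box. Part of the HEXIM1 window is also covered by an exon of the long noncoding RNA AC142472.1 on the opposite strand. No motif share is given for the genes that changed, since 57.7% of the tested genes had a promoter in the table, which is under 80%.

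**Figure D1:**
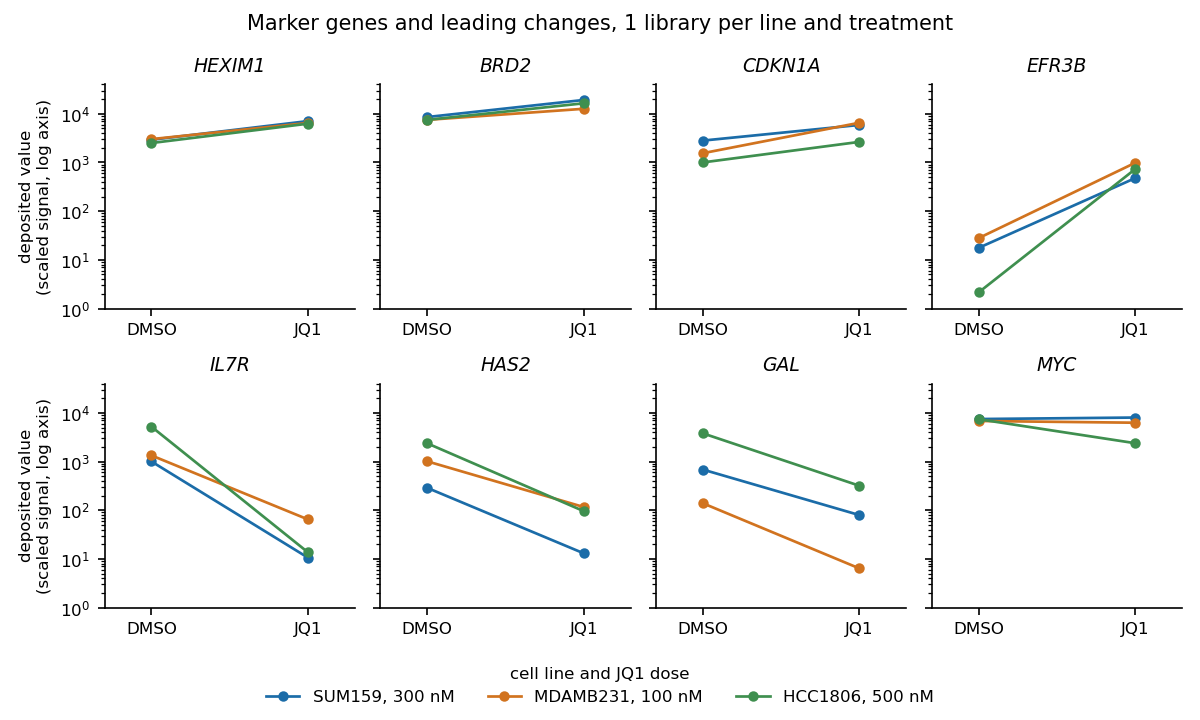
Deposited value (scaled signal, log axis) of 8 genes in the DMSO and the JQ1 library of each line. Each line joins the 2 libraries of 1 cell line, coloured by line, and the legend gives its JQ1 dose. HEXIM1, BRD2, CDKN1A and EFR3B rose and IL7R, HAS2 and GAL fell in each line, whereas MYC was at 7428 and 2389 in HCC1806 and ended at 8028 in SUM159 and 6289 in MDAMB231.

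Apart from HEXIM1, the elongation genes tested gave 0 calls by limma. Over all 14235 tested genes 5.30% passed, and 4164 had an unadjusted p below 0.05. At that share, 0 calls in lists this short say little about their members. Of 16 genes of 7SK and P-TEFb, and of the elongation complexes that carry it, HEXIM1 rose and the other 15 did not pass, with a median of −0.03, and 4 of the 16 had an unadjusted p below 0.05. The paralog HEXIM2 was near 100 in DMSO, at 98.2, 90.1 and 117, and at 72.2, 97.3 and 65.3 with JQ1 (−0.39 ± 0.34, adjusted p = 0.490). CDK9, the kinase of P-TEFb, was at 1324, 1574 and 1926 in DMSO and at 1479, 1376 and 1962 with JQ1, with the groups overlapping (0.00 ± 0.14, adjusted p = 0.992). The scaffold gene AFF1 was higher in each line, at 2035, 4513 and 2078 against 1238, 3313 and 791 (0.85 ± 0.20, adjusted p = 0.0633), and AFF4 was at 8529, 9500 and 5091 against 7024, 7393 and 3219 (0.43 ± 0.13, adjusted p = 0.0991). Neither passed. The 7SK-binding genes LARP7 (−0.05) and MEPCE (0.02) and the cyclin genes CCNT1 (−0.07) and CCNT2 (−0.29) had changes with adjusted p between 0.247 and 0.956. LARP7 and CDK9 changed sign with quantile normalization and with median-ratio rescaling. Of 17 genes of promoter pausing and of Mediator, 0 passed (6 unadjusted, median −0.09).

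MYC, the oncogene that BET inhibitors are best known for lowering, did not pass over the 3 lines (−0.55 ± 0.33, adjusted p = 0.321). It was at 7482, 6825 and 7428 in DMSO and at 8028, 6289 and 2389 with JQ1. The HCC1806 library alone was low with JQ1, and the SUM159 and MDAMB231 pairs differed little. Among the 12 tested members of the MYC and MAX network, MXD4, a MAX partner that represses MYC targets, was the 1 that passed. It makes up 8.3% of that list, against 2.43% of all tested genes that rose. It was at 6155, 690 and 113 in DMSO and at 9667, 3720 and 590 with JQ1 (1.82 ± 0.36, adjusted p = 0.0477). Its groups overlapped, as its level differed widely by line. MLX, a MAX-like factor, was lower in each line (−0.57 ± 0.14, adjusted p = 0.0653), and MXD1 (0.46), MXD3 (0.83), MLXIP (0.37) and MGA (0.11) were not past the threshold either.

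The rise that was largest in its least responsive line was that of EFR3B, which anchors a phosphatidylinositol kinase at the plasma membrane. It was at 17.6, 27.9 and 2.14 in DMSO and at 476, 981 and 728 with JQ1. Every JQ1 value was more than 10 times every DMSO value, and the change was 5.88 ± 0.65 (adjusted p = 0.0348). DPYSL3, a protein of the growth cone cytoskeleton, was at 31.6, 48.2 and 15.0 against 1166, 424 and 925 with JQ1, which is 26.2-fold (4.71 ± 0.54). YPEL1 rose from 22.5, 6.41 and 7.15 to 228, 89.6 and 99.0, or 11.4-fold (3.51 ± 0.38). These 3 genes were low in DMSO in every line and higher in every JQ1 library, with no overlap, though YPEL1 stayed low in MDAMB231 and HCC1806. The calpain protease gene CAPN5 was at 44.5, 204 and 52.8 in DMSO and at 324, 1139 and 748 with JQ1 (3.04 ± 0.32). MAFA, a transcription factor known from pancreatic beta cells, was at 1.17, 4.52 and 18.2 against 18.1, 56.6 and 182 (3.26 ± 0.42), so that its HCC1806 DMSO value lay level with its SUM159 JQ1 value. C14orf37 (3.60 ± 0.50), the sperm fibre gene ROPN1L (2.84 ± 0.48) and IQUB (2.90 ± 0.53) also rose. Low DMSO values make these folds depend on the pseudocount. With a pseudocount of 10 the changes were 4.92 for EFR3B, 2.71 for YPEL1, 2.10 for MAFA, 2.89 for C14orf37, 1.99 for ROPN1L and 1.34 for IQUB, which is listed at 0 in HCC1806. Without HCC1806 EFR3B changed by 4.88 and C14orf37 by 2.93.

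Among abundant genes, with a mean value of at least 1000, the secreted chaperone gene CLU was at 2606, 444 and 1945 in DMSO and at 12805, 3913 and 8127 with JQ1. It rose 5.65-fold (2.50 ± 0.22, adjusted p = 0.0348), with the lowest JQ1 value above the highest DMSO value. ABCA7, a lipid transporter, was at 939, 134 and 534 against 3910, 984 and 2544 (2.39 ± 0.20), and NANOS1, an RNA-binding repressor of translation, at 230, 500 and 429 against 1666, 2332 and 1633 (2.33 ± 0.22). Both sets of values were also apart. The secreted protease gene HTRA1 (2.43 ± 0.30) and the tubulin gene TUBA1A (2.01 ± 0.17) rose in each line, but HCC1806 started from levels so low, at 117 and 425, that the groups overlapped. TUBA1A ended at 9554, 15476 and 1527.

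IL7R was at 1004, 1338 and 5210 in DMSO and at 10.6, 64.8 and 13.7 with JQ1. Each line lost nearly all of the signal, and the fall was 85.5-fold (−6.42 ± 0.73, adjusted p = 0.0348). HAS2, a synthase of the matrix polymer hyaluronan, was at 289, 1013 and 2375 against 13.1, 117 and 96.1 with JQ1, which is 16.3-fold lower (−4.03 ± 0.36). GAL, the precursor of the neuropeptide galanin, was at 686, 139 and 3805 against 79.6, 6.39 and 319 (−3.64 ± 0.31). HAS2 did not overlap between the groups, while GAL did, as its levels in DMSO ranged widely over the lines. The axon guidance related gene NAV3 fell from 744, 2252 and 639 to 47.8, 290 and 6.83 (−4.41 ± 0.63), and the phosphatase gene PTPN22 from 509, 243 and 7.48 to 9.56, 7.30 and 0 (−4.52 ± 0.60). FBXL13 (−3.31 ± 0.37), the sarcomere gene MYPN (−3.24 ± 0.39), the long noncoding RNA MYOSLID (−3.93 ± 0.54), SPOCD1 (−4.25 ± 0.53) and the cytokine gene CSF2 (−4.05 ± 0.52) complete the 10 leading falls. SPOCD1 was listed at 0 with JQ1 in HCC1806, and CSF2 in SUM159 and HCC1806, so these changes depend on the pseudocount. With a pseudocount of 10 they were −2.51 and −1.84, and those of PTPN22, MYPN and MYOSLID were −3.13, −2.44 and −2.80. Without HCC1806 the change of IL7R was −5.39 and that of NAV3 −3.44.

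Abundant genes that fell included AOX1, an aldehyde oxidase, at 4897, 5784 and 26.7 in DMSO and 568, 940 and 3.42 with JQ1 (−2.79 ± 0.22, adjusted p = 0.0348). ZNF618 was at 1602, 835 and 3142 against 432, 124 and 959 (−2.11 ± 0.24), and NRG1, a ligand of the ERBB receptors, at 357, 1554 and 9953 against 123, 564 and 872 (−2.17 ± 0.41, adjusted p = 0.0462). The fall of NRG1 was steepest in HCC1806, where its level was highest, and without that line the change was −1.49. The long noncoding RNA CCAT1 was at 7855, 9.04 and 569 against 204, 1.83 and 3.42 (−4.70 ± 0.93, adjusted p = 0.0480). The change of CCAT1 was −3.77 with a pseudocount of 10 and −3.55 without HCC1806. How CCAT1 and MYOSLID were counted with respect to strand is not stated, so reads of overlapping genes on the other strand could be included. FGFBP1, which releases fibroblast growth factors from the matrix, passed with 11628 against 937 in HCC1806 but was at 5.86 and 3.01 against 0 in the other lines, so its mean of −2.80 rests on very low values there and was −1.55 with a pseudocount of 10.

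The same genes were followed in the 6 libraries treated with GSK2801, where the combination with JQ1 was compared with GSK2801 alone. No library is shared with the comparison above, although the lines are the same. Of the 346 genes that rose with JQ1 alone, 344 (99.4%) were higher in all 3 lines here, against 21.1% of all tested genes. Of the 408 that fell, 400 (98.0%) were lower in all 3 lines, against 29.5% of all tested. The median changes were 1.25 and −1.28 here and 1.16 and −1.12 with JQ1 alone. In this second set 333 genes passed the threshold (2.34% of those tested), and 144 of the rises and 139 of the falls were among them in the same direction. HEXIM1 changed by 1.65, BRD2 by 1.21, EFR3B by 5.50, IL7R by −5.94 and HAS2 by −3.93, each with an adjusted p between 0.0414 and 0.0456. SPOCD1 (−2.21, adjusted p = 0.130) and FGFBP1 (−0.95, adjusted p = 0.607) did not pass. Across the 14235 genes, the log2 ratio of a line without GSK2801 correlated with its ratio with GSK2801 at Pearson r = 0.78, 0.82 and 0.81, in the same order of lines. Between lines, the ratios to DMSO correlated at 0.39 to 0.46. These are descriptions across genes, which are not independent replicates.

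**Figure D2:**
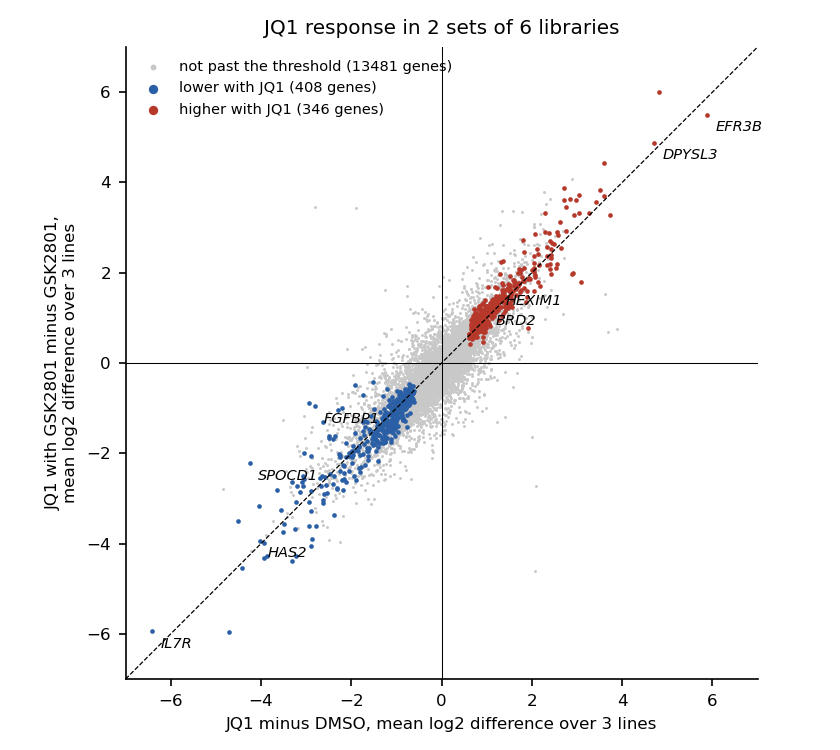
Mean log2 difference of JQ1 from DMSO (x axis) against that of JQ1 with GSK2801 from GSK2801 alone (y axis), over 3 lines each, for the 14235 tested genes. Red points are the 346 genes higher and blue points the 408 genes lower in the first comparison, grey points the rest, and the dashed line marks equal change. IL7R lies at −6.42 and −5.94 and EFR3B at 5.88 and 5.50.

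Some histone genes that give polyadenylated transcripts, and some linker histone genes, rose with JQ1. Such transcripts differ from the bulk of histone mRNA, which ends in a stem-loop and is made during S phase. Of 25 tested, 7 rose and 0 fell, against 2.43% and 2.87% of all genes, and the median was 1.02 against −0.08. Over all 49 tested genes with a histone symbol, the same 7 rose (14.3%) and 0 fell. Their median was 0.94, but these 49 share members with the 25, the 7 calls among them. That median therefore does not describe the other histone genes alone, which were not tested as a set. Genes at least 2-fold higher in each line numbered 6 among the 25 and 6 among the 49. Those whose groups did not overlap numbered 12 and 13. The median was lower over the 49 than over the 25 in each line, at 0.0 against 0.48 in MDAMB231. The core histone gene HIST1H2BD was at 172, 195 and 155 in DMSO and at 887, 1400 and 1185 with JQ1, a 6.54-fold rise with no overlap (2.71 ± 0.21, adjusted p = 0.0348). HIST2H2BE was at 218, 18.0 and 24.3 against 1017, 78.0 and 400 (2.75 ± 0.45, adjusted p = 0.0410), so that its MDAMB231 JQ1 value stayed below its SUM159 DMSO value, and without HCC1806 it changed by 2.14. HIST1H2AC (2.71 ± 0.32) and the linker histone genes H1F0 (1.56 ± 0.30) and H1FX (0.93 ± 0.15), which are named here after their values were seen to complete the count, rose too. In HCC1806 24 of the 25 genes were higher with JQ1 and 20 at least 2-fold, in SUM159 24 and 15, and in MDAMB231 17 and 6. The change was largest in HCC1806 for 21 of the 25 genes. MDAMB231 received the lowest dose and HCC1806 the highest, but dose cannot be told apart from line here, and its part was not tested. With quantile normalization 5 of the 25 rose, and the median was 1.20.

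The remaining calls of that list were HIST2H4A, at 50.8, 84.4 and 32.9 in DMSO and 1079, 220 and 1104 with JQ1 (3.59 ± 0.69), and HIST2H4B, at 144, 0 and 55.7 against 1078, 165 and 1001 (4.81 ± 0.82). Since HIST2H4B is listed at 0 in MDAMB231 with DMSO, its change was 3.63 with a pseudocount of 10 and 3.52 without that line, and without HCC1806 that of HIST2H4A was 2.88. HIST2H4A and HIST2H4B are near-identical copies of a histone H4 gene on chromosome 1, and how reads were divided between them is uncertain. Summed, the copies were at 194.5, 84.4 and 88.7 in DMSO and at 2157, 385.3 and 2106 with JQ1, a rise in each line. Their promoters are shown with that of HIST2H2BE, because 250 of 250 bases before the start were identical between the copies. The H4 stretch is chr1:149861211-149861409 on the minus strand (RefSeq, GRCh38.p14), which is HIST2H4B less the 51 bases that GENCODE places in its exon, and HIST2H2BE is chr1:149886683-149886932 on the minus strand. Capitals mark the same 6 motifs.
HIST2H4B: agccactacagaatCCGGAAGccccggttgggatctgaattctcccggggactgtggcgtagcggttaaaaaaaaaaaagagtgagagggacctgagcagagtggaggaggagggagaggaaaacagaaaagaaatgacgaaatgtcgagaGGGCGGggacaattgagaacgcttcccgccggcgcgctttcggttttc
HIST2H2BE: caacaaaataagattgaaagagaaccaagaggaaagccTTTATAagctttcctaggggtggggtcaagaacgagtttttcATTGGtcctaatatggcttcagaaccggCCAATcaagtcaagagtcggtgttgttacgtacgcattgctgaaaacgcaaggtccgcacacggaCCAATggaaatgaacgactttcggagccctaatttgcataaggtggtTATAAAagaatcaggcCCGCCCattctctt
The HIST2H2BE window held 2 TATAAA, at −212 and −30, 3 CCAAT boxes and 1 GC box. The H4 window held 1 CCGGAAG and 1 GC box, and none of the other motifs.

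**Figure D3:**
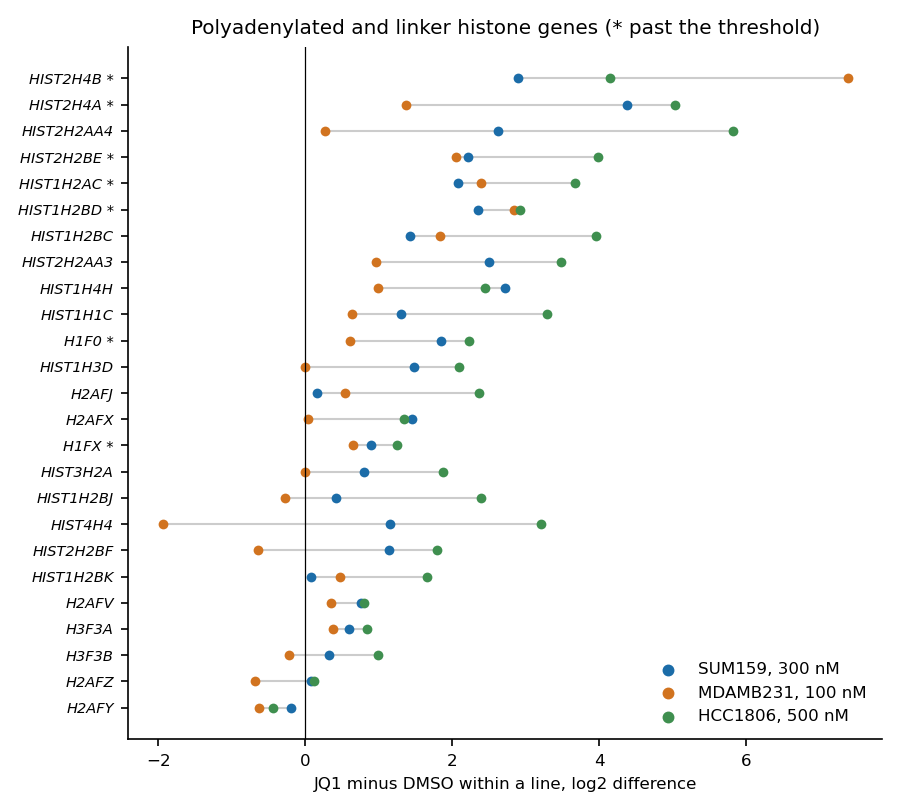
Log2 difference of JQ1 from DMSO within each line for the 25 polyadenylated and linker histone genes, ordered by their mean, with a point per line and a grey bar over its range. Stars mark the 7 genes past the threshold. The point of HCC1806 lies furthest right for 21 genes and that of MDAMB231 furthest left for 19.

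Genes that build ribosomes were among those that fell with JQ1. The nucleolus assembles ribosomes from rRNA made by RNA polymerase I, with many assembly factors that do not stay in the finished particle. Of 57 assembly factors tested, 15 fell (26.3%) and 0 rose, against 2.87% and 2.43% of all genes. The median was −0.66 against −0.08 for all genes. In 52 of the 57 all 3 lines were lower, against 4112 of the 14235 genes tested, and the changes ranged from −1.31 to −0.03. BRIX1, a factor of the large subunit, was at 2762, 3579 and 3909 in DMSO and at 1538, 1174 and 1406 with JQ1, so that the groups were apart (−1.31 ± 0.18, adjusted p = 0.0348). NOP16, also of the large subunit, was at 1202, 1936 and 942 against 701, 766 and 353 (−1.17 ± 0.19). GAR1, of the particles that make pseudouridine in rRNA, was at 953, 1851 and 653 against 536, 698 and 279, with some overlap (−1.15 ± 0.19). Line by line the median of the list was −0.37, −0.95 and −0.80. Over the lines it was −0.63 with quantile normalization and −0.60 with median-ratio rescaling, under which 7 and 8 members passed, all lower.

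RNA polymerase I itself gave 2 falls among 15 subunits and factors (13.3%, against 2.87% of all tested genes, median −0.39). ZNRD1 was at 505, 516 and 473 in DMSO, nearly the same in the 3 lines, and at 231, 144 and 184 with JQ1 (−1.44 ± 0.24, adjusted p = 0.0410). TWISTNB was at 1938, 2503 and 2633 against 1291, 1514 and 1668 (−0.66 ± 0.13, adjusted p = 0.0464). Both kept their groups apart. RNA polymerase III, which makes tRNA and 5S rRNA, also gave 2 falls, of 21 (9.5%). Its factor gene GTF3C6 was at 1464, 1471 and 1003 against 446, 367 and 117, which is 4.81-fold lower (−2.27 ± 0.29, adjusted p = 0.0348), and its subunit gene POLR3G at 962, 2722 and 769 against 416, 644 and 260 (−1.62 ± 0.21). The fall of GTF3C6 was steepest in HCC1806.

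Falls were also found among genes of protein and nucleotide synthesis. Of 20 tRNA synthetase genes, which charge tRNA with amino acids, 6 fell (30.0%) and 0 rose (median −0.44). Over all tested genes 2.87% fell and 2.43% rose. MARS was at 6242, 5568 and 9436 against 2969, 2849 and 6043 (−0.89 ± 0.14), and YARS (−0.81 ± 0.15) and VARS (−0.73 ± 0.13) were next. Of 78 mitochondrial ribosomal protein genes 9 fell (11.5%) and 0 rose (median −0.51). Of 79 genes of cytosolic ribosomal proteins, which form the finished ribosome, 1 fell (1.3%) and 0 rose (median −0.13). The 1 that fell, RPL7L1, was named after its values were seen. That cytosolic median was −0.18 with quantile normalization and −0.07 with median-ratio rescaling. Nucleotide and polyamine synthesis gave 5 falls of 30 (16.7%) and 0 rises (median −0.43). They were the folate enzyme gene MTHFD1L, at 845, 2017 and 3946 against 288, 804 and 1598 (−1.39 ± 0.15), the purine synthesis genes PFAS (−1.16 ± 0.16), PAICS (−0.84 ± 0.13) and GART (−0.72 ± 0.12), and the nucleoside diphosphate kinase gene NME1 (−1.12 ± 0.18). Of 33 translation factors, EIF4EBP2, which holds back cap-dependent translation, was the 1 past the threshold (3.0%, near the share of all genes that rose). It was at 5700, 3876 and 2072 against 9915, 6375 and 4072 with JQ1 (0.83 ± 0.12).

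**Figure D4:**
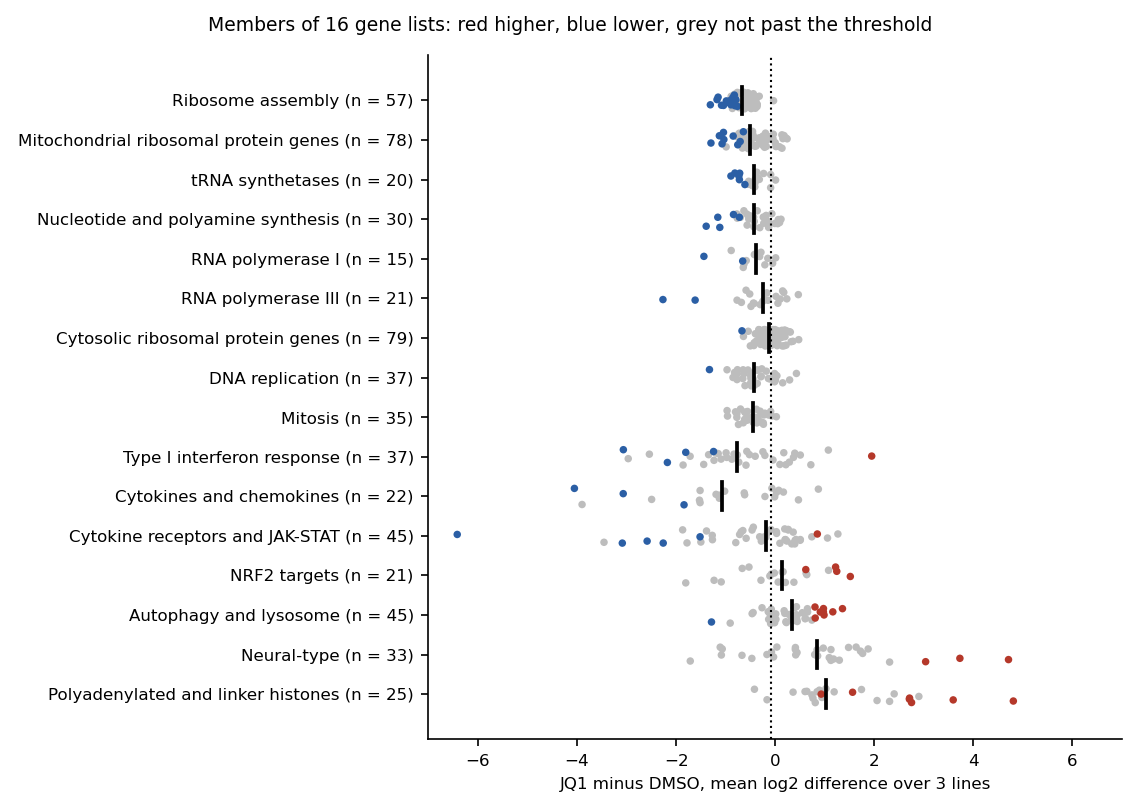
Mean log2 difference of JQ1 from DMSO over 3 lines for each tested member of 16 gene lists (1 point per gene, n in the label). Red and blue points passed the threshold, black bars are list medians, and the dotted line is the median of all tested genes at −0.08. Ribosome assembly genes lie between −1.31 and −0.03, and the histone median lies at 1.02.

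Cell cycle genes gave single calls, against 2.43% of all tested genes higher and 2.87% lower. CDKN1A, which encodes the cyclin-dependent kinase inhibitor p21, was at 2816, 1552 and 1003 in DMSO and at 5903, 6546 and 2649 with JQ1. It rose in each line, though HCC1806 with JQ1 stayed below SUM159 with DMSO (1.51 ± 0.21, adjusted p = 0.0348). Among 21 inhibitors, G1 cyclins and their partners, E2F2, an activator of S-phase genes, fell from 594, 275 and 854 to 225, 71.2 and 252 (−1.70 ± 0.23) and the kinase gene CDK6 from 3526, 4901 and 2029 to 2087, 3043 and 1281 (−0.70 ± 0.12). CCND1 did not pass, with 16598, 19634 and 15022 in DMSO and 24404, 49615 and 12758 with JQ1 (0.55 ± 0.29, adjusted p = 0.260). Of 37 DNA replication genes POLE2, a subunit of a replicative polymerase, was the 1 that fell (−1.33 ± 0.21). This is 2.7% of that list, near the share of all genes. Of 35 mitosis genes 0 passed (14 unadjusted). The medians of those lists were −0.42 and −0.44, with −1.04 and −1.05 in MDAMB231, −0.03 and −0.36 in SUM159, and −0.05 and −0.01 in HCC1806. The proliferation marker MKI67 was at 19668, 14857 and 43102 in DMSO and at 11278, 7290 and 35693 with JQ1 (−0.70 ± 0.18, adjusted p = 0.0721). Of 30 DNA repair genes RAD51D fell (−1.04 ± 0.21), or 3.3%, which is also near the share of all genes.

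Of 21 p53 target genes outside that list, 3 rose (14.3%) and 1 fell (4.8%), against 2.43% and 2.87% of all tested genes (median 0.10). TP53I3, an oxidoreductase, was at 488, 356 and 193 in DMSO and at 1755, 759 and 856 with JQ1 (1.69 ± 0.25, adjusted p = 0.0379). TP53INP1, which promotes autophagy and cell death, was at 145, 124 and 72.6 against 281, 996 and 743 (2.43 ± 0.48). RRM2B, a subunit of ribonucleotide reductase, rose by 0.93 ± 0.18, while the exonuclease gene AEN fell from 656, 2057 and 999 to 350, 625 and 293 (−1.46 ± 0.23). Of 15 genes of the BCL2 family 0 passed (5 unadjusted). BCL2 itself was at 463, 714 and 303 against 341, 332 and 166, lower in each line (−0.80 ± 0.23, adjusted p = 0.0872).

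Cytokine signalling held IL7R and other falls. Of 45 cytokine receptor and JAK-STAT genes 5 fell (11.1%) and 1 rose (2.2%), against 2.87% and 2.43% of all tested genes (median −0.19). The receptor gene IL27RA was at 1461, 488 and 1628 in DMSO and at 188, 152 and 367 with JQ1, with no overlap (−2.26 ± 0.28, adjusted p = 0.0348). IL18R1 fell from 805, 38.2 and 63.0 to 101, 0.91 and 15.9 (−3.09 ± 0.54), and IL15RA from 545, 470 and 446 to 178, 228 and 118 (−1.52 ± 0.26). SOCS2, a feedback inhibitor of these receptors, was at 458, 1625 and 624 against 36.1, 752 and 76.3 (−2.59 ± 0.48). The kinase gene JAK1 moved the other way, from 5688, 4133 and 3807 to 9406, 7100 and 7856 (0.85 ± 0.13). Of 22 cytokines and chemokines 3 fell (13.6%) and 0 rose (median −1.07). Besides CSF2 they were LIF, at 69.1, 1044 and 194 against 17.0, 407 and 41.4 (−1.84 ± 0.31), and IL1A, at 22.3, 49.0 and 2649 against 7.43, 4.56 and 110 (−3.07 ± 0.62, adjusted p = 0.0497). With a pseudocount of 10 the change was −2.46 for IL1A and −2.17 for IL18R1, and it was −2.32 for IL1A without HCC1806 and −2.45 for IL18R1 without MDAMB231.

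Interferon response genes gave more falls than rises. Of 37 tested 4 fell and 1 rose, against 2.87% and 2.43% of all genes, and the median was −0.76 (−1.03, −0.29 and −0.61 by line). In all 3 lines 19 of the 37 were lower, against 4112 of the 14235 genes tested. The antiviral genes OASL, at 170, 128 and 260 in DMSO and 31.9, 15.5 and 17.1 with JQ1 (−3.06 ± 0.41), and IFI44, at 458, 184 and 521 against 94.5, 41.1 and 118 (−2.18 ± 0.26), fell with their groups apart. OAS3 (−1.81 ± 0.20) and IFIT1 (−1.24 ± 0.25) also fell. IRF7, a transcription factor of the interferon loop, rose from 157, 345 and 87.6 to 872, 1080 and 294 (1.95 ± 0.25). NFKB1, which encodes the p50 subunit of NF-kB, was the 1 of 20 NF-kB pathway genes past the threshold, at 3182, 2957 and 2385 against 2088, 1370 and 1318 (−0.86 ± 0.15). TAP2, which loads peptides for antigen presentation, was the 1 of 23 genes of that list (−1.02 ± 0.14).

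Among 45 autophagy and lysosome genes there were 8 rises (17.8%) and 1 fall (2.2%), against 2.43% and 2.87% of all tested genes (median 0.33). ULK1, the kinase that starts autophagy, was at 1477, 213 and 1199 in DMSO and at 2805, 817 and 2787 with JQ1 (1.36 ± 0.22, adjusted p = 0.0404). GABARAPL1, a protein of the autophagosome membrane, was at 234, 326 and 1060 against 392, 876 and 2651 (1.16 ± 0.20), and the lysosomal growth factor gene GRN at 2537, 1567 and 3249 against 4638, 4423 and 4895 (0.99 ± 0.19). Of these, only GRN had groups apart. CLN3, a lysosomal membrane protein, fell from 543, 281 and 844 to 187, 147 and 321 (−1.29 ± 0.23).

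Of 21 NRF2 targets, which serve redox defence, 4 rose and 0 fell (median 0.14). FTH1, the ferritin heavy chain, was at 72996, 25442 and 19974 in DMSO and at 282633, 66289 and 46331 with JQ1 (1.52 ± 0.20, adjusted p = 0.0348). The thioredoxin reductase gene TXNRD1 was at 18273, 17318 and 7135 against 49065, 38808 and 15715 (1.24 ± 0.14), and PGD, of the pentose phosphate pathway, rose as well (0.62 ± 0.13). In the ATF4 and unfolded protein list of 27, ATF4 itself fell from 7345, 6223 and 5288 to 2687, 3017 and 3577 (−1.02 ± 0.19) and its target TRIB3 from 1654, 1622 and 2079 to 478, 824 and 466 (−1.64 ± 0.25). These falls are 7.4% of that list. In the hypoxia and glycolysis list of 33, NDRG1 (1.42 ± 0.28) and EPAS1 (0.97 ± 0.19) rose, and the angiogenic factor gene VEGFA fell from 1183, 985 and 886 to 610, 344 and 393 (−1.21 ± 0.19). The rises are 6.1% of that list and the fall 3.0%, the latter near the share of all genes. TM7SF2, a reductase of sterol synthesis, was the 1 of 28 cholesterol genes that passed (3.6%, near the share of all genes). It was at 105, 73.8 and 479 against 293, 508 and 3614 (2.38 ± 0.33).

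Signalling and transcription factor lists held isolated calls in both directions, against 2.43% of all tested genes higher and 2.87% lower. Among 16 AP-1 factors JUND, the family member known from resting cells, was at 3503, 4680 and 1775 in DMSO and at 10402, 11373 and 5934 with JQ1, with the groups apart (1.53 ± 0.14, adjusted p = 0.0348). MAFA rose as given above, and BATF3 fell from 57.4, 332 and 73.7 to 10.6, 73.0 and 10.3 (−2.41 ± 0.36). FOSL1 did not pass, at 952, 7759 and 5553 against 837, 5757 and 590 (−1.28 ± 0.57, adjusted p = 0.200). Of 24 genes of ERK output LIF and ETV4 fell, the latter from 1479, 1430 and 1553 to 428, 605 and 341 (−1.74 ± 0.22). Among 27 receptor tyrosine kinases FGFR3 rose from 34.0, 38.4 and 587 to 80.7, 317 and 4690 (2.41 ± 0.41), and TYRO3 fell from 2412, 910 and 3997 to 943, 618 and 1205 (−1.21 ± 0.24).

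The neural-type list of 33 had 3 rises (9.1%, against 2.43% of all tested genes), 0 falls and a median of 0.85. Beside DPYSL3 it held the adhesion gene L1CAM, at 1.17, 794 and 111 against 34.0, 3049 and 4215 (3.73 ± 0.60), and the microtubule gene MAP1A, at 104, 30.1 and 44.9 against 274, 250 and 1202 (3.04 ± 0.61). The TGF-beta list of 20 had 2 rises (10.0%), both of the ID family. That family blocks the DNA binding of helix-loop-helix factors and is also induced by BMP. ID1 was at 1968, 1053 and 2814 in DMSO and at 5018, 3228 and 13702 with JQ1 (1.75 ± 0.20), and ID2 at 57.4, 35.4 and 111 against 682, 141 and 574 (2.62 ± 0.38). Both had groups apart. Without HCC1806 L1CAM changed by 2.98 and MAP1A by 2.20, and with a pseudocount of 10 L1CAM changed by 3.01. Of 50 matrix and integrin genes FBN1, a microfibril protein, rose (1.36 ± 0.18), or 2.0%, near the share of all genes. Of 7 genes of the plasminogen system the receptor gene PLAUR (−1.20 ± 0.23) and the inhibitor gene SERPINF2 (−2.89 ± 0.52, and −1.77 with a pseudocount of 10) fell. This is 28.6% of a short list, against 2.87% of all tested genes. Of 10 hyaluronan genes HAS2 was the 1 that passed (10.0%).

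Of 41 histone deacetylases and methylases, SIRT4, a mitochondrial sirtuin, rose from 9.38, 3.01 and 7.48 to 40.4, 29.2 and 55.8 (2.55 ± 0.46, and 1.63 with a pseudocount of 10). HDAC9 fell from 265, 1209 and 899 to 41.4, 505 and 146 (−2.17 ± 0.34), and the DNA demethylase gene TET3 fell too (−0.90 ± 0.17). In that list 2.4% rose, near the 2.43% of all tested genes, and 4.9% fell. DNAJC7 (−0.80 ± 0.16), of 26 chaperones, and PSMB2 (−0.74 ± 0.13), of 31 proteasome genes, fell. These are 3.8% and 3.2% of their lists, near the 2.87% of all tested genes that fell. The lists of other bromodomain proteins (33 tested), snoRNA host genes (20), YAP and TEAD targets (17), and basal (27), mesenchymal (16) and luminal (12) genes gave 0 calls by limma, with 6, 9, 4, 7, 2 and 4 genes at an unadjusted p below 0.05. By length and level, the genes that changed had median gene spans of 28.7 kb (higher) and 29.3 kb (lower) against 33.0 kb for all tested genes, and of 4 equal groups by mean value, from low to high, 1.77%, 5.20%, 7.34% and 6.88% passed.

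The response was also compared between lines, HCC1806 against the mean of SUM159 and MDAMB231, in all 12 libraries. Its p-values rest on how far each line departs from additivity of the drugs and not on replicate cultures. Here 3577 genes (25.1%) passed, 2061 with the more positive and 1516 with the more negative JQ1 response in HCC1806. Of the 754 genes changed by JQ1 over the lines, 167 (22.1%) passed as well, which is near the share of all genes. Within a line, 618 genes were at least 2-fold higher and 1908 lower in SUM159, 1229 and 1318 in MDAMB231, and 1543 and 1449 in HCC1806, with no test. HEXIM1 (0.14, adjusted p = 0.592), BRD2 (0.16, adjusted p = 0.334) and CDKN1A (−0.11, adjusted p = 0.496) did not pass this comparison. MYC differed by −1.64 (adjusted p = 7.6e-04), FOSL1 by −2.82 (adjusted p = 3.1e-04), CCND1 by −1 (adjusted p = 0.00677) and IL7R by −3 (adjusted p = 0.00252), each more negative in HCC1806. Of the 25 histone genes 16 passed.

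The genes with the largest line differences were mostly expressed in 1 line. IL37, a cytokine gene, was at 283 in the DMSO library of HCC1806 and at 0 in its JQ1 library, and at most 0.754 in the other 4. CYP2B6 (186 against 0), GIMAP4 (502 against 1.14) and the plasminogen activator inhibitor gene SERPINB2 (312 against 0) were likewise high in HCC1806 with DMSO. INA, a neurofilament-like gene, was at 121 in HCC1806 with JQ1 and at 0 in the other 5 libraries. RELN, a secreted neuronal protein, was at 10922 and 74.6 in DMSO in SUM159 and MDAMB231 and at 644 and 0 with JQ1, and at 0 and 2.28 in HCC1806. None of these passed the comparison over the 3 lines.

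**Figure D5:**
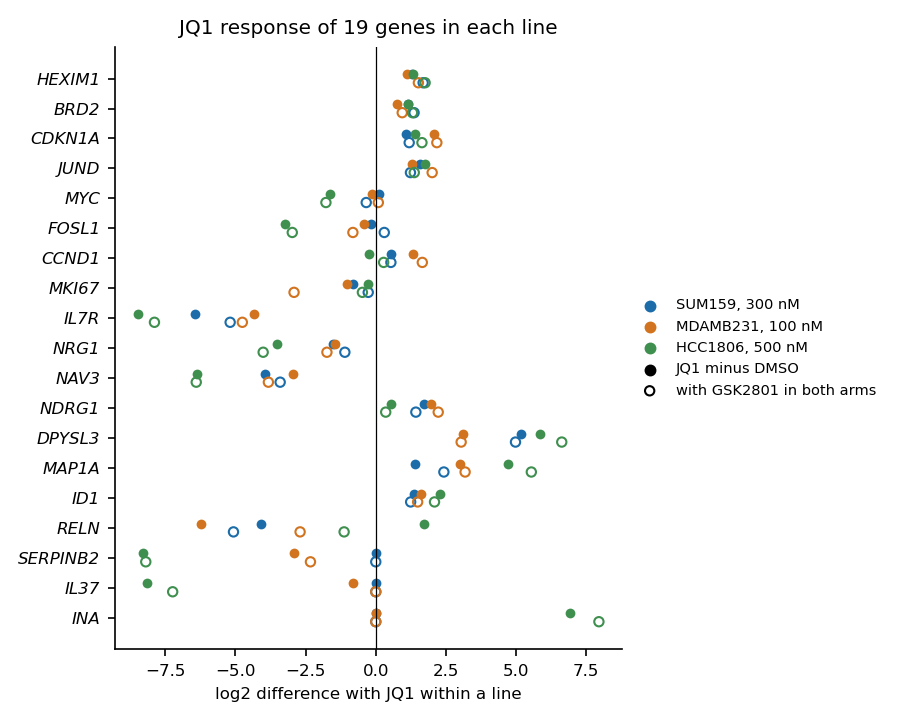
Log2 difference with JQ1 within each line for 19 genes, as JQ1 against DMSO (filled points) and with GSK2801 in both arms (open points), coloured by line with the JQ1 dose in the legend. HEXIM1, BRD2 and JUND lie close together over the lines, whereas MYC, FOSL1 and NRG1 lie furthest left in HCC1806.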

How the data were processed

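RNA-seq libraries from 3 cell lines were compared, 3 with JQ1 against 3 with DMSO. Per the submitters' processing notes, STAR 2.4, Salmon 0.60 and the hg38 build were used; the annotation, the strand setting and the scaling are not given in the sources used here. The labels name a KAPA stranded kit in one place and an Illumina TruSeq kit in another, so reads of antisense partners may not be separated. The deposited values were taken as signal, estimated counts scaled by the authors to an upper quartile of 1663.93 in each library, since 67.2% to 69.0% of values above 0 were whole multiples of 1 read (tolerance 0.02). This is not nearly all, so the count model that had been planned for unscaled counts was not used. Of 28539 entries, 27 with symbols turned into dates (0.168% to 0.218% of the signal) were left out.

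Tests used limma 3.58.1 in R 4.3.3 on log2(value + 1), with a variance trend, the line as a block (2 residual and 4.06 prior degrees of freedom), a mean value of at least 10 and Benjamini-Hochberg adjustment over all genes, two-sided. The script was tested on simulated data. The labels tie the 2 libraries of a replicate number to 1 line, and the DMSO and JQ1 libraries of a line deviated together from their group means (r = 0.90 to 0.91, against −0.53 to −0.34 across lines). With 1 library per line and treatment, p-values measure the spread between lines, not between cultures. The fit with GSK2801 in both arms was the same, and the line comparison had 3 residual and 4.50 prior degrees of freedom. The fit over 12 libraries was an alternative, because JQ1 and combination libraries share a line's own JQ1 effect.

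The comparison, its lists and the genes named were chosen with earlier results of these data known. Named were the marker genes and the tested BET, P-TEFb and MYC network genes, the 10 rises and 10 falls whose smallest change over the lines was largest, 6 and 6 among genes with a mean of at least 1000, up to 3 and 3 called genes of each list, the 5 and 5 largest line differences, and 7 genes of prior interest. Some genes are not reported here. Positions are from GENCODE v29, where 98.3% of the tested symbols had 1 gene, and promoters from RefSeq. Alternatives were other scalings, pseudocounts, filters and variance models, a fold threshold, the fit without the block, and leaving out each line.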

Additional observations from a re-analysis of the deposited data

Results flagged for a closer look

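Of the 145 genes chosen for naming, 51 (35.2%) had a JQ1 response in HCC1806 that differed from the mean of the other lines in the 12-library limma fit (adjusted p under 0.05), against 25.1% of all genes tested. Of these, 10 were chosen for the size of that difference: CYP2B6, IL37, GIMAP4, SERPINB2, TENM2, RELN, RIMBP3, PALM2-AKAP2, ZACN and INA. Differences are log2, HCC1806 minus the mean of SUM159 and MDAMB231, and line, medium and dose cannot be told apart. In 25 genes the response was more negative in HCC1806: CYP2B6 −7.5, IL37 −7.49, GIMAP4 −7.18, SERPINB2 −6.93, TENM2 −5.78, CCAT1 −4, IL7R −3, NAV3 −2.84, FOSL1 −2.82, IL1A −2.65, NRG1 −2.3 and OASL −2.27, then MYC −1.64, HDAC9 −1.55, NDRG1 −1.38, MXI1 −1.29, GTF3C6 −1.16, SOCS2 −1.13, IL15RA −1.12, NANOS1 −1.05, CCND1 −1, CLU −0.844, TYRO3 −0.751, GRN −0.539 and DNAJC7 −0.371. In 26 it was more positive: INA 7.44, ZACN 5.4, PALM2-AKAP2 5.12, RIMBP3 5.09, RELN 4.81, MAP1A 2.63, PTPN22 2.4, DPYSL3 2.17, EFR3B 2.11, C14orf37 2.04, HIST2H4A 2.03 and L1CAM 1.91, then TP53INP1 1.14, HTRA1 1.09, CAPN5 1.05, TP53I3 0.81, ID1 0.763, RRM2B 0.722, MXD4 0.689, FBN1 0.657, AFF1 0.574, PFAS 0.522, AFF4 0.422, TET3 0.403, YARS 0.386 and MEPCE 0.386. Among these, 34 had also passed the comparison over the 3 lines. A more positive difference need not be a rise in HCC1806. PTPN22 fell there too, from a low level, and RELN was barely detected there.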

How the results depend on the processing

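With no low-value filter, no variance trend, a fold threshold of 1.5 or no replicate block for the line, limma called 0 genes higher and 0 lower with JQ1 (4374, 3449, 1036 and 585 unadjusted), and 0 with GSK2801 in both arms (3739, 3414, 1189 and 686). Without any 1 replicate (line) the counts were also 0 to 0 in each case. With 12 libraries 1347 genes were higher and 1865 lower, and 744 of the 754 calls passed there too. With quantile normalization 232 genes were lower, and 541 of the 754 calls were kept. The line comparison called 2179 genes with no variance trend. Of 104 called genes chosen for naming, 82 still passed with quantile normalization, 98 with median-ratio rescaling, 95 with a pseudocount of 10 and 103 with 12 libraries. None changed sign, but only the scalings could have changed one. The filters, the variance model, the fold threshold, the fit without the block and that over 12 libraries keep the mean difference. All 754 calls had 1 sign in the 3 lines, which neither a pseudocount nor leaving out a line can reverse.

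Genes that changed sign had not passed. With quantile normalization they were LARP7 (9.4e-04), CDK9 (0.0435), MLXIPL (0.001) and ZACN (0.202), and with median-ratio rescaling LARP7 (0.00899) and CDK9 (0.0568). Leaving out 1 replicate (line) at a time changed the sign of 13 genes that had not passed over the 3 lines, with these lowest and highest log2 differences: LARP7 −0.194 to 0.0467, MEPCE −0.113 to 0.202, MXI1 −0.266 to 0.427, MLXIPL −1.4 to 1.53, ZACN −2.43 to 1.97, CDK9 −0.0835 to 0.0934, CCNT1 −0.217 to 0.0531, ELL3 −0.234 to 0.614, MLLT3 −0.262 to 0.786, MNT −0.0964 to 0.269, EAF2 −0.137 to 0.823, RIMBP3 −0.391 to 3.08, PALM2-AKAP2 −0.717 to 2.09. The cause was not tested. With 1 library per line and treatment the design cannot separate line from culture, and depth limits genes listed at 0, whose folds depend on the pseudocount.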
